A study of Mus musculus with 24 samples.

Results

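The comparison set 6 libraries of heart muscle cells from Mrtfa null mice whose floxed Mrtfb was targeted with Cre (DKO 1 to 6) against 6 control libraries (Ctrl 1 to 6). Together they are 12 of the 24 libraries in the series, chosen by their titles and the matching columns of the deposited count table. All 23337 genes of that table were candidates, and 12281 passed the filter on low counts and were tested. The DKO mice carried Mrtfa-/- (spelled Mrfta in the label), floxed Mrtfb (Mrtfb-F/F) and Rosa-Cas9/Cas9, and received AAV-Cre, an adeno-associated virus that delivers Cre recombinase. The Ctrl mice carried Rosa-Cas9/Cas9, with no Mrtf allele listed, and also received AAV-Cre. A second pair of groups differed by the same Mrtf genotype under another virus: TKO (Mrtfa-/-, Mrtfb-F/F, Rosa-Cas9/Cas9) and MKO (Rosa-Cas9/Cas9), 6 libraries each, both given AAV carrying a guide RNA against Myocd. Virus was injected on postnatal day 1, and cardiomyocytes were isolated and sorted at 4 weeks of age in all 4 groups. Cas9 was thus present in every group, the Mrtfa null allele was carried by the DKO and TKO mice in all tissues, and the floxed Mrtfb is deleted only in cells that Cre reaches. Which promoter drives Cre is not stated in the labels. The labels also do not tie libraries to animals, so a p-value here sets differences against the spread among the libraries of a group, part of which may be technical.

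Mrtfa and Mrtfb are coactivators that bind monomeric actin through their RPEL motifs. When actin polymerises they are released, enter the nucleus and join serum response factor (Srf), which recognises a DNA motif called the CArG box in the promoters of actin and actin-binding genes. Myocardin (Myocd) is their heart and smooth muscle relative and stays in the nucleus. Known targets of the pathway include the actins themselves, so actin filament assembly and actin gene transcription are coupled.

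The deposited values are read counts per gene, and levels are given here as CPM, the reads of a gene scaled to a common library size after TMM adjustment. Libraries held 5830185 to 12157279 counted reads in DKO and 8017413 to 11496873 in Ctrl. The shallowest was DKO 1, which correlated at 0.919 with the rest of its group on the log2 scale, against 0.983 to 0.988 for the other 5 DKO libraries and 0.969 to 0.990 for the Ctrl libraries. DKO 1 also differed by transcript length: genes of the shortest quartile (67 to 1872 bases) stood 0.68 log2 units above the median of the other DKO libraries, and those of the longest quartile (4436 to 104320 bases) stood 0.70 log2 units below it (a value of -0.70). The other 11 libraries stayed between -0.14 and 0.14 in every quartile. By Xist and Y-linked transcripts, DKO 1 was the only male DKO library and the other 5 were female, whereas 4 Ctrl libraries were male and 2 female. Each count below is therefore also given without DKO 1. Sex is unbalanced between the groups, and more so without DKO 1, when all DKO libraries are female. Calls with sex as a term and in female libraries alone are given below.

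**Figure D1:**
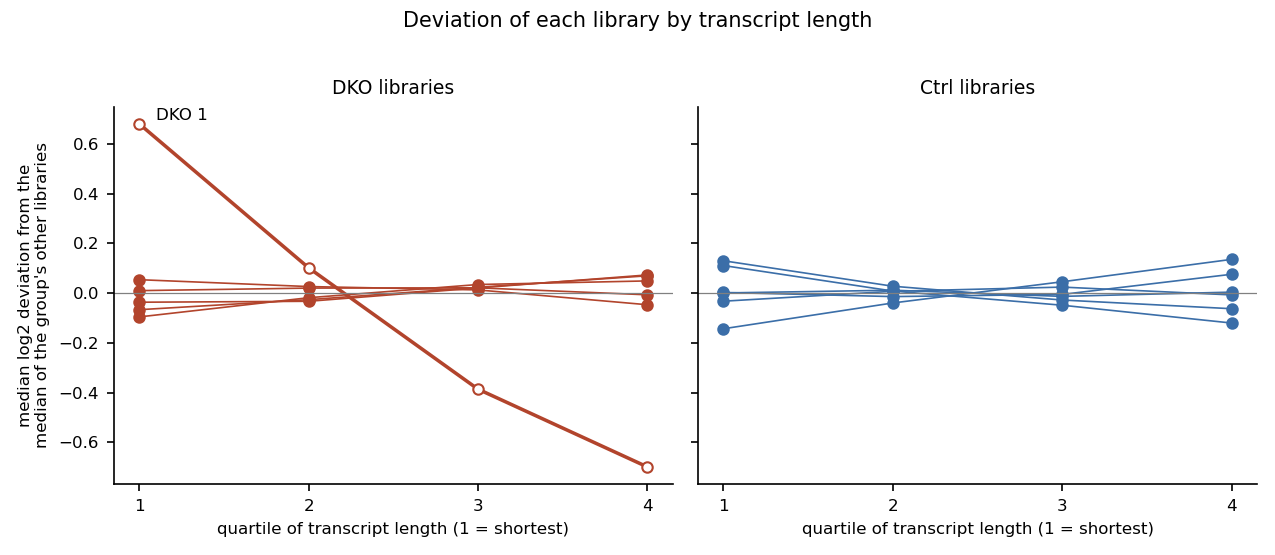
Median log2 deviation of each library from the median of the other libraries of its group (y axis), by quartile of transcript length with quartile 1 the shortest (x axis); each line is 1 library, with DKO on the left and Ctrl on the right. DKO 1 (open points) stands at 0.68 in the shortest quartile and -0.70 in the longest, and the other libraries stay near 0.

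Markers of the sorted cell type were abundant in every library. The summed level of 20 ventricular cardiomyocyte markers was 150915 to 178752 CPM in DKO and 181579 to 222891 CPM in Ctrl, so the groups did not overlap. Myh6 alone, a large part of the sum, held 23244 to 68511 CPM in DKO and 67490 to 93271 CPM in Ctrl. Myl2 (2882 to 7115 CPM in DKO, 2799 to 4039 CPM in Ctrl) and Tnnt2 (9836 to 14285 CPM and 11359 to 14329 CPM) overlapped between groups. Of the 20, 8 had log2 ratios above 0, where 6746 of the 12281 genes tested did. None of the 20 was called (2 fell without DKO 1, Actc1 and Ckm), and their median log2 ratio was -0.14, against 0.02 over all genes tested. Fewer cardiomyocytes among the sorted cells and less of these transcripts per cell cannot be told apart in such bulk libraries. Endothelial markers summed to 469.6 to 1311 CPM in DKO and 237 to 2552 CPM in Ctrl, and fibroblast markers to 149 to 799 CPM in DKO and 176 to 774 CPM in Ctrl. Leukocyte markers summed to 11.1 to 20.9 CPM in DKO and 6.34 to 21.5 CPM in Ctrl, and the leukocyte marker Ptprc did not exceed 0.742 CPM in any of the 12. All adipocyte markers together did not exceed 0.40 CPM, with Retn and Cidec at 0 throughout. Of the 13 fibroblast markers tested, 13 had log2 ratios above 0, against 6746 of 12281 over all genes tested, and 0 were called. Their median was 0.33, 0.54 without DKO 1 and 0.17 in the female libraries.

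Both targeted genes were lower in every DKO library than in any Ctrl library. Mrtfa is listed under its older symbol Mkl1 (mm10, chr15:81012281-81190757, minus strand). Mkl1 stood at 1.40, 1.96 and 2.77 CPM (lowest, median and highest) in the 6 DKO libraries, against 4.81, 7.55 and 11.3 CPM in the 6 Ctrl libraries. The log2 ratio was -1.92 ± 0.21 (SE; adjusted p = 7.56e-06, edgeR quasi-likelihood test). Mrtfb is listed as Mkl2 (mm10, chr16:13256481-13417529, plus strand). Mkl2 stood at 26.6, 32.9 and 39.3 CPM in DKO, against 44.8, 48.8 and 55.9 CPM in Ctrl, a log2 ratio of -0.57 ± 0.11 (adjusted p = 0.00603). Its ratio in TKO against MKO was -0.53 (adjusted p = 0.00163), where the treatment label names the Myocd guide virus and no Cre. Reads over the whole gene are counted, so what remained of Mkl2 includes any transcript outside the floxed exons, and how many cells kept an intact allele cannot be read from it. The third family member, Myocd, stood at 175, 206 and 242 CPM in DKO, against 153, 182 and 234 CPM in Ctrl, and did not pass the test (log2 ratio 0.17 ± 0.13, adjusted p = 0.686).

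Srf, the shared DNA-binding partner, was lower in 5 of the 6 DKO libraries. DKO 2 to 6 held 52.0 to 63.6 CPM and DKO 1 held 105 CPM, against 69.4, 81.0 and 96.6 CPM in Ctrl (lowest, median and highest). With DKO 1 the log2 ratio was -0.33 ± 0.14 (adjusted p = 0.421). Without DKO 1 it was -0.52 (adjusted p = 0.0165) and the remaining 5 DKO libraries lay below all 6 Ctrl libraries. The ETS partner Elk4, a ternary complex factor that competes with the Mrtf proteins for Srf, had a log2 ratio of 0.34 ± 0.14 (adjusted p = 0.383).

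Over all genes, 78 of 12281 were called at an adjusted p under 0.05 (0.635%). Of these, 37 were higher in DKO (0.301%) and 41 were lower (0.334%). The 6 DKO libraries did not overlap the 6 Ctrl libraries in 29 of the 37 and in 35 of the 41, where over all genes tested 0.391% lay above without overlap and 0.603% lay below. Without DKO 1, 124 of 12366 genes were called (1.0%), 43 higher (0.348%) and 81 lower (0.655%). Of the 78 genes, 70 were called again without DKO 1 and 8 were not: Bcl9, Fbxo32, Gm12295, Gm505, Il15, Mcart1, Pmp22 and Ucp2. A further 54 were called only without DKO 1. No called gene changed sign in any of the 12 fits that left out 1 library.

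Since 5 DKO libraries were female and 4 Ctrl libraries were male, the call was repeated with sex as a term in the model and in female libraries alone, an alternative chosen after the data were seen. With sex as a term 187 genes were called (1.52%), 85 higher (0.692%) and 102 lower (0.831%), and 74 of the 78 were among them with the same sign. In the female libraries, 5 DKO against 2 Ctrl, 20 genes were called (0.159%), 9 higher (0.0716%) and 11 lower (0.0875%), and 13 of the 78 were among them (4 higher, 9 lower). Mkl1, Acta2 and Arc were called there, whereas Mkl2, Acta1, Actg1, Myl9 and Cnn2 were not. All 78 genes kept their sign. In the authors' deposited table of the same comparison 235 genes were called, 73 of the 78 among them, which is 93.6% of the 78 and 31.1% of the 235.

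The same difference of Mrtf genotype could be read in the 12 TKO and MKO libraries, which share no library with DKO and Ctrl. Of 12281 genes, 1639 were called between TKO and MKO (13.3%), 796 higher in TKO (6.48%) and 843 lower (6.86%), and of the 12203 genes not called in DKO against Ctrl 12.9% were. Of the 37 genes higher in DKO, 37 had a log2 ratio above 0 in TKO against MKO, as did 49.8% of all genes tested, and 34 were called there. Of the 41 genes lower in DKO, 39 had a log2 ratio below 0, as did 50.2% of all genes tested, and 35 were called. The 2 with the opposite sign were Acta1 and the unnamed locus Gm505, and neither was called. Bcl9, Ret, Ucp2, Casq2, Slc8a1, Mau2 and Sstr3 kept the sign but did not pass the test in TKO against MKO. Of the 124 genes called without DKO 1, 123 were also tested in the fit of all 24 libraries, of which 121 had the same sign and 97 were called in TKO against MKO.

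**Figure D2:**
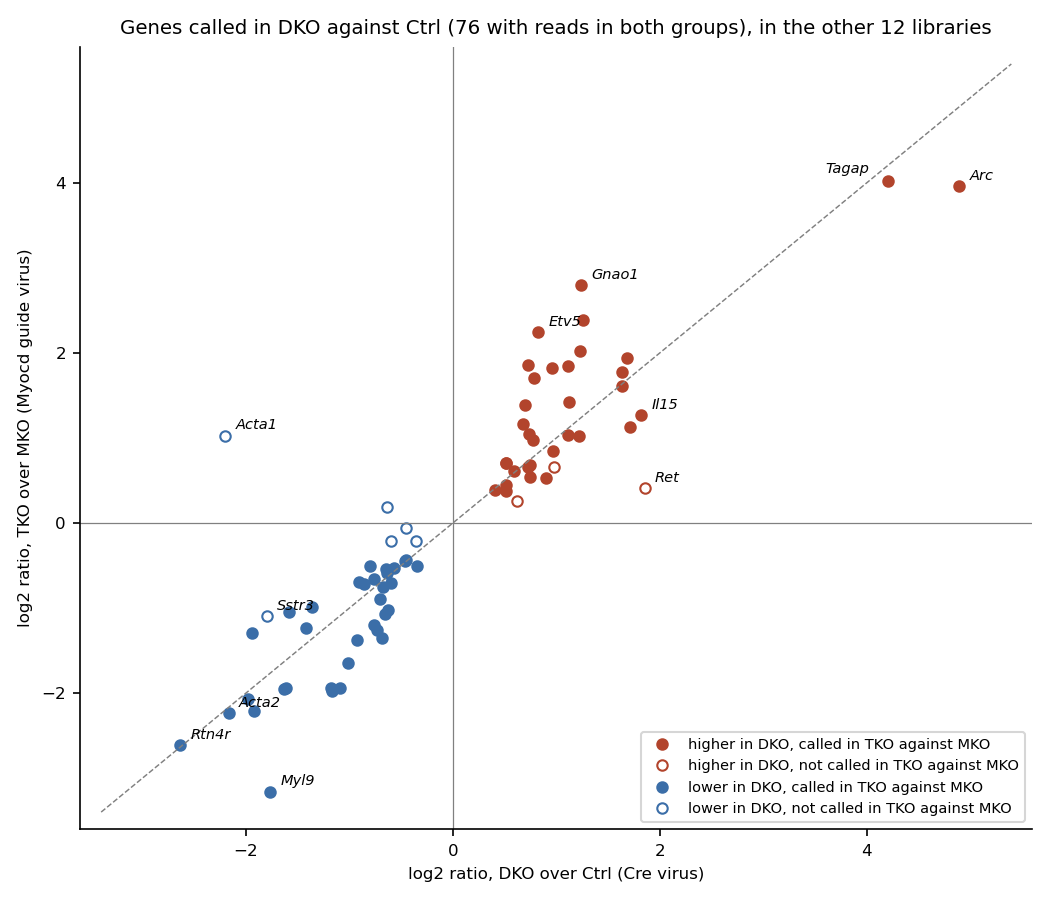
Log2 ratio of DKO over Ctrl (x axis) against log2 ratio of TKO over MKO (y axis) for the 76 called genes with reads in both DKO and Ctrl; filled points were called in TKO against MKO, open points were not, and the dashed line marks equal ratios. Nearly all points lie in the lower left and upper right fields; Acta1, at -2.20 and 1.03, is the clearest point off them, and Gnao1 and Etv5 lie well above the line.

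Of 28 pathway lists the actins, the list with the fewest genes tested, had the median furthest from 0. The lists were chosen with earlier results of these data known, so this rank is a description only. The same holds for the numbers called in each list, where 0.301% of all genes tested rose and 0.334% fell. Of 6 isoforms 5 were tested, 3 fell and 0 rose, and the list's median log2 ratio was -1.61 (-1.51 without DKO 1 and -0.88 in the female libraries), against 0.02 (-0.00 and 0.01) over all genes tested. The promoters shown here were picked because they hold a CArG box, the site through which Srf and the Mrtf proteins act, or a near match. They are those of 4 actins, of Srf, of the actin-binding genes Myl9, Cnn2 and Dstn, and of Vcl, which was not called. Most called genes hold no box in the window, and none is shown for the other list members that fell, such as Wdr1, Pdlim7, Casq2 and Kcnip2. Sequences are RefSeq promoters on GRCm38.p6 (the mm10 assembly), 5′ to 3′ along each gene's strand, with the box in capitals and 20 bases on each side.

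Actc1: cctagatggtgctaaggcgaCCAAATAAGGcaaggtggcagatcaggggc
Acta1: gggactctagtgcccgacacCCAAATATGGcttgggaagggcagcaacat
Actg1: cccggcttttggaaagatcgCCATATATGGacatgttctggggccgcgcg
Acta2: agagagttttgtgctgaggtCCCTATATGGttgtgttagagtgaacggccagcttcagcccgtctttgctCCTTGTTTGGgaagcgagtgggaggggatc
Myl9: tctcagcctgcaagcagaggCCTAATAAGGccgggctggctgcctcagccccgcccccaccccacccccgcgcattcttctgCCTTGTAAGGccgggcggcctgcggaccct
Cnn2: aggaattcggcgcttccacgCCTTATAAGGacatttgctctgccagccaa
Dstn: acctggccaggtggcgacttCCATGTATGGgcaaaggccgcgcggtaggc
Srf: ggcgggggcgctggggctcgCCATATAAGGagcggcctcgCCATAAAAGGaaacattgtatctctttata
Vcl: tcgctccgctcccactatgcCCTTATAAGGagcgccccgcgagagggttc
The stretches are chr2:114052893-114052942 (minus strand) for Actc1, chr8:123894819-123894868 (minus) for Acta1, chr11:120348556-120348605 (minus) for Actg1 and chr19:34255378-34255477 (minus) for Acta2. They are chr2:156775283-156775394 (plus) for Myl9, chr10:79988524-79988573 (plus) for Cnn2, chr2:143915205-143915254 (plus) for Dstn, chr17:46556195-46556264 (minus) for Srf and chr14:20929151-20929200 (plus) for Vcl.

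Actc1, Acta1, Actg1 and Cnn2 each hold 1 CArG box in the window searched (250 bases before to 50 bases after the start), between 38 and 90 bases upstream of the start, and Myl9 holds 1 that begins 161 bases upstream. Srf itself holds 2 boxes within 82 bases of its start. The capitals in Acta2 and Dstn, and the second capital run in Myl9, are near matches in which 1 of the central A or T bases is G or C. In Acta1 and Actc1 only the box was marked and near matches were not. Near matches are common: 902 of the 9783 tested genes with a promoter held one and no box (9.22%). Among the lower genes 8 of 35 did (22.9%), and among the higher genes 2 of 28 (7.14%). Vcl, the gene of the adhesion protein vinculin, holds a box 227 bases upstream and was not called (log2 ratio -0.38 ± 0.14, adjusted p = 0.318, and -0.24 without DKO 1). Counted over sets, a CArG box on either strand stood in 4 of the 35 lower genes with a RefSeq promoter (11.4%: Acta1, Actg1, Cnn2 and Myl9) and in 0 of the 28 higher ones. Over the 9783 tested genes with a promoter the share was 1.56% (153 genes), and over all 32851 promoter windows it was 1.63%. Without DKO 1 it was 10 of 69 lower genes (14.5%) and 0 of 28 higher ones. Most genes with a box were not called: of the 153 tested genes with a box 4 were called, 79 had a log2 ratio under 0, and their median log2 ratio was -0.00. A match is a description of these letters and not of Srf binding.

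Actc1, the cardiac alpha-actin of the thin filament, was by far the most abundant isoform per length, at 11816 ± 4896 CPM per kilobase in DKO and 17449 ± 1755 CPM per kilobase in Ctrl (mean and SD, n = 6 each). DKO 2 to 6 held 12147 to 15600.1 CPM and DKO 1 held 30051 CPM, against 21680.3, 23980.2 and 27651 CPM in Ctrl (lowest, median and highest). DKO 1 thus lay above every Ctrl library and the other 5 DKO libraries below all of them. The log2 ratio was -0.56 ± 0.19 with DKO 1 (adjusted p = 0.243) and -0.83 without it (adjusted p = 0.00142). Between TKO and MKO it was -1.15 (adjusted p = 0.00022).

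Acta2, the smooth muscle alpha-actin, stood at 116, 174 and 256 CPM in DKO, against 585, 789 and 961 CPM in Ctrl. Its log2 ratio was -2.17 ± 0.27 (adjusted p = 2.23e-05) and -2.32 without DKO 1, the highest of the DKO libraries. All DKO libraries lay below all Ctrl libraries by a wide margin. Acta2 is also a marker of smooth muscle cells, and its level was set beside the others of that list. Of 15 smooth muscle and pericyte markers 14 were tested, 7 had log2 ratios above 0, and Acta2 was the only one called. Myh11, the smooth muscle myosin, stood at 2.40, 5.89 and 22.6 CPM in DKO, against 2.74, 5.89 and 15.2 CPM in Ctrl, and Cnn1 did not exceed 1.06 CPM in any library. The list without Acta2 and Des, which cardiomyocytes also express, summed to 617 to 1257 CPM in DKO and 1029 to 1505 CPM in Ctrl, with DKO 1 the lowest. This sum still holds Abcc9, which is also in the potassium channel list. Abcc9 alone stood at 130 to 422 CPM in DKO, with DKO 1 the lowest, and at 423 to 703 CPM in Ctrl. The sum is thus not a measure of smooth muscle cells alone.

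Acta1, the skeletal alpha-actin that is re-expressed in stressed hearts, stood at 12.7, 29.8 and 44.9 CPM in DKO, against 56.8, 115 and 342 CPM in Ctrl. The highest value belonged to Ctrl 3, and the groups did not overlap. The log2 ratio was -2.20 ± 0.49 (adjusted p = 0.0291), and -1.72 without Ctrl 3 (adjusted p = 0.113). Leaving out Ctrl 4, DKO 2, DKO 3, DKO 4 or DKO 6 also ended the call, so it held in 6 of 12 such fits. In TKO against MKO the ratio was 1.03 (adjusted p = 0.150), with 39.6 to 375 CPM in TKO and 58.0 to 123 CPM in MKO. The difference between the 2 contrasts was itself called (3.23 ± 0.68 on the log2 scale, adjusted p = 0.0346).

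Actg1, a cytoplasmic gamma-actin, stood at 11.8, 21.5 and 25.7 CPM in DKO, against 38.8, 55.1 and 92.6 CPM in Ctrl. Its log2 ratio was -1.61 ± 0.31 (adjusted p = 0.00603), and no DKO library reached the lowest Ctrl library. Ctrl 1 to 3 held 68.8 to 92.6 CPM and Ctrl 4 to 6 held 38.8 to 41.5 CPM. With sex as a term the ratio was -1.24 (adjusted p = 0.0412), and in the female libraries, whose controls are Ctrl 4 and Ctrl 5, it was -0.88 (adjusted p = 0.193). Actb, the cytoplasmic beta-actin and the remaining tested isoform, stood at 56.4, 104 and 216 CPM in DKO, against 85.3, 108 and 228 CPM in Ctrl. Its log2 ratio was -0.11 ± 0.29 (adjusted p = 0.938), and -0.39 without DKO 1 (adjusted p = 0.631). Actb was lower in TKO than in MKO (-1.47, adjusted p = 0.00164). The actins are near-identical in their coding sequence, and the treatment of reads that match several genes is not stated, so their split between isoforms is uncertain.

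**Figure D3:**
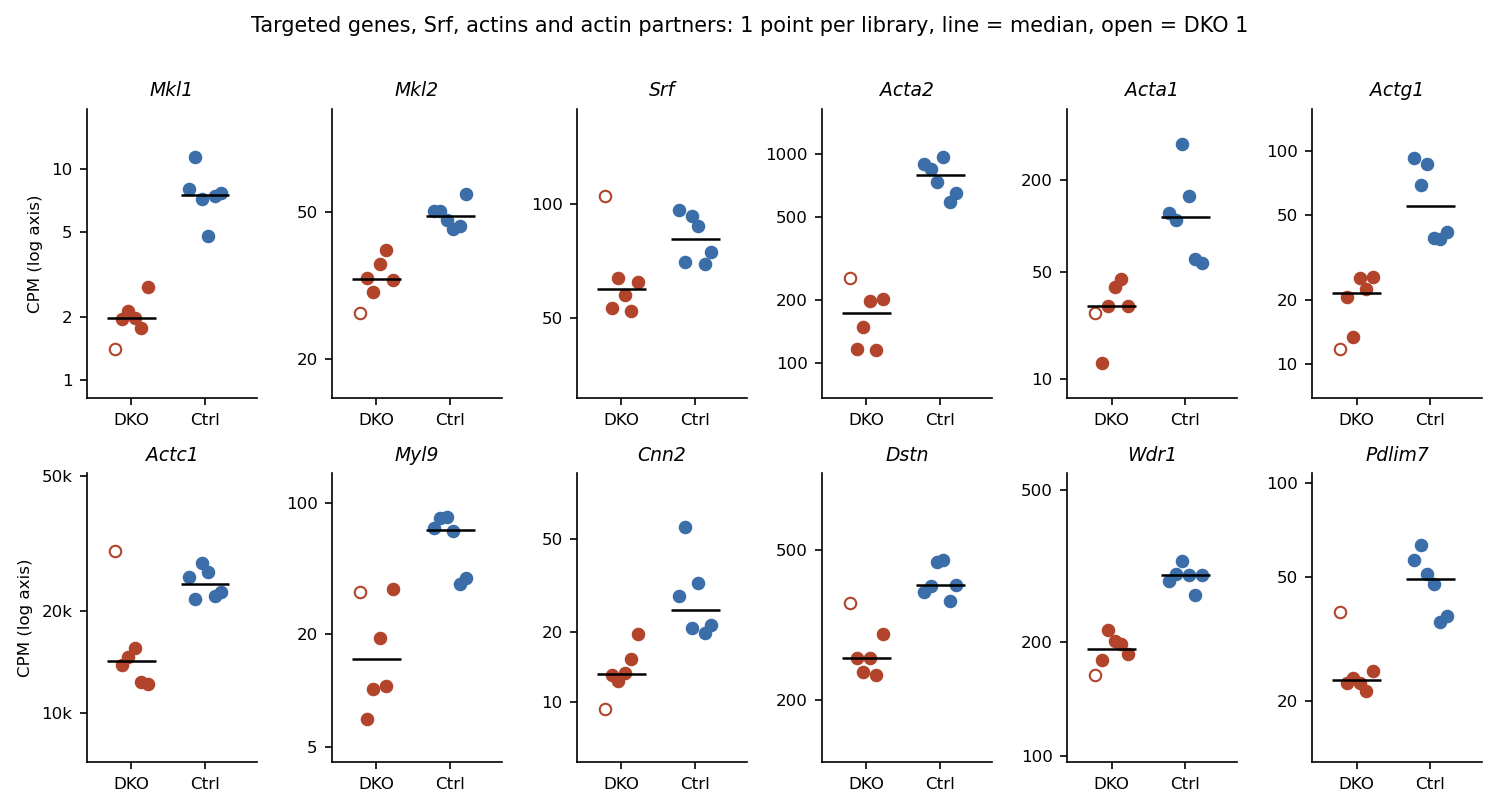
Level in CPM on a log axis (y axis, 1 panel per gene) in the 6 DKO libraries (left, red) and the 6 Ctrl libraries (right, blue); each point is 1 library, the line is the group median and the open point is DKO 1. Mkl1, Mkl2, Acta2, Acta1, Actg1, Myl9, Cnn2, Dstn and Wdr1 do not overlap between groups, while in Srf, Actc1 and Pdlim7 only DKO 1 passes the lowest Ctrl library, at 105, 30051 and 38.5 CPM.

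Proteins that work on actin fell in small numbers. Of 21 actin-bound contractile partners 2 fell and 0 rose, where 0.334% of all genes tested fell, and the list's median log2 ratio was -0.06. Myl9, a regulatory light chain of non-muscle and smooth muscle myosin, stood at 7.08, 14.8 and 34.8 CPM in DKO, against 36.8, 71.9 and 84.4 CPM in Ctrl (log2 ratio -1.77 ± 0.33, adjusted p = 0.00465). Cnn2, a calponin that binds filaments outside the sarcomere, stood at 9.39, 13.2 and 19.5 CPM in DKO, against 19.7, 25.0 and 56.4 CPM in Ctrl (-1.09 ± 0.23, adjusted p = 0.0174). Both fell without overlap between the groups, although for each the highest DKO library came close to the lowest Ctrl library. Without DKO 2 the call of Cnn2 was lost (adjusted p = 0.0505).

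Of 49 genes of actin filament turnover 2 fell (0.334% of all genes tested did) and 0 rose, with a median log2 ratio of -0.01. Dstn, the depolymerising factor destrin, stood at 233, 259 and 361 CPM in DKO, against 367, 402 and 468 CPM in Ctrl (-0.60 ± 0.11, adjusted p = 0.00424). Wdr1, which helps cofilin take filaments apart, stood at 164, 191 and 214 CPM in DKO, against 265, 298 and 326 CPM in Ctrl (-0.64 ± 0.10, adjusted p = 0.00100). Neither gene overlapped between groups, and DKO 1 was the highest DKO library for Dstn and the lowest for Wdr1. Capzb, a subunit of the protein that caps filament ends, fell only without DKO 1 (-0.39, adjusted p = 0.0259). DKO 1 held 548 CPM and the other 5 DKO libraries 293 to 367 CPM, against 392 to 489 CPM in Ctrl. Vasp, an elongation factor, had a log2 ratio of -0.61 ± 0.15 and missed the threshold (adjusted p = 0.0659). Of 41 cross-linkers and Z-disc LIM proteins 1 fell, the LIM scaffold Pdlim7 (-0.93 ± 0.17, adjusted p = 0.00517), with 21.6 to 25.1 CPM in DKO 2 to 6 and 38.5 CPM in DKO 1, against 35.9 to 63.5 CPM in Ctrl. Its relative Pdlim3 stood at 16.01 to 35.8 CPM in DKO and 47.1 to 60.7 CPM in Ctrl, and missed the threshold (-1.11 ± 0.28, adjusted p = 0.0659).

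The lists of larger structures that anchor actin held no called gene. Pdlim7 and Acta1, and without DKO 1 also Actc1 and Fbxl22, were called but are not members of these lists. Among 41 integrin and costamere genes, 20 intercalated disc genes and 35 sarcomere genes, 0 rose and 0 fell, with and without DKO 1. Their median log2 ratios were -0.07 for the integrin and costamere list, -0.10 for the intercalated disc and 0.04 for the sarcomere, and -0.05, -0.00 and -0.09 in that order without DKO 1. Myh6, the alpha-myosin heavy chain of the mouse ventricle, stood at 23244 CPM in DKO 1 and 53412 to 68511 CPM in the other DKO libraries, against 67490 to 93271 CPM in Ctrl. Its log2 ratio was -0.55 ± 0.18 (adjusted p = 0.216), and -0.40 without DKO 1 (adjusted p = 0.0917). Tcap, the titin cap protein of the Z-disc, stood at 3367 CPM in DKO 1 and 1012 to 1368 CPM in the other DKO libraries, against 805 to 1149.6 CPM in Ctrl.

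Beside Srf and Actc1, the genes called only without DKO 1 included other muscle genes. Both creatine kinases fell. Ckm, the muscle isoform that buffers ATP at the myofibril, held 2099 to 2533 CPM in DKO 2 to 6, against 3416 to 4351 CPM in Ctrl (-0.75, adjusted p = 0.0418), and DKO 1 held 4160.4 CPM. Ckb, the brain isoform, held 75.6 to 128 CPM in DKO 2 to 6, against 139 to 236 CPM in Ctrl (-0.73, adjusted p = 0.0272). With DKO 1 the ratios were -0.56 and -0.65, neither called (adjusted p = 0.286 and 0.0739). Fbxl22, an F-box protein of the cardiac Z-disc, held 98.5 to 122 CPM in DKO 2 to 6, against 177 to 261 CPM in Ctrl (-1.01, adjusted p = 0.00497), and Calr3, a calreticulin relative, fell by 1.04 on the log2 scale (adjusted p = 0.000549). DKO 1 lay inside the Ctrl range for Ckm, Fbxl22 and Calr3.

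Ion handling genes fell in a few places. Of 27 potassium channel and pump genes 2 fell and 0 rose, where 0.334% of all genes tested fell. Kcnip2, the KChIP2 subunit that the transient outward current needs, stood at 53.3, 55.8 and 72.9 CPM in DKO, against 87.7, 101 and 116 CPM in Ctrl (-0.76 ± 0.17, adjusted p = 0.0243). Kcne1, a subunit of the slow delayed rectifier, stood at 186, 213 and 283 CPM in DKO, against 296, 344 and 417 CPM in Ctrl (-0.66 ± 0.14, adjusted p = 0.0174). Neither gene overlapped between groups, and both were lower again in TKO than in MKO, with log2 ratios of -1.19 for Kcnip2 and -1.07 for Kcne1 (adjusted p = 2.74e-05 and 1.03e-05). Of the 12 fits that left out 1 library Kcnip2 was called in 5 (largest adjusted p = 0.0681), and Kcne1 in 10, not without Ctrl 1 or DKO 2 (0.0676).

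Of 39 calcium cycling genes 2 fell and 0 rose, where 0.334% of all genes tested fell. Slc8a1, the sodium-calcium exchanger that extrudes calcium between beats, stood at 114, 132 and 154 CPM in DKO, against 175, 189 and 249 CPM in Ctrl (-0.59 ± 0.12, adjusted p = 0.00739). Casq2, the calcium buffer of the sarcoplasmic reticulum, stood at 1657, 1876 and 1967 CPM in DKO, against 1975, 2391 and 2567 CPM in Ctrl (-0.36 ± 0.08, adjusted p = 0.0265). The groups were separate for each gene, for Casq2 by a narrow gap between DKO 1, the highest of its group, and the lowest Ctrl library. Slc8a1 was called in all 12 fits that left out 1 library and Casq2 in 3 (largest adjusted p = 0.0852). Both kept the sign in TKO against MKO without passing the test, at -0.21 for each (adjusted p = 0.243 for Slc8a1 and 0.0711 for Casq2). Tmem38a, the TRIC-A potassium channel of the same membrane, fell only without DKO 1 (-0.51, adjusted p = 0.00376). Among 23 calcium, sodium and pacemaker channels 0 were called, and without DKO 1 the T-type channel Cacna1h was higher, with 21.3 to 34.9 CPM in DKO 2 to 6 and 4.39 CPM in DKO 1, against 9.20 to 21.6 CPM in Ctrl (0.82, adjusted p = 0.0299).

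G protein signalling held changes in both directions. Of 50 adrenergic, muscarinic and G protein genes 2 rose and 1 fell, where 0.301% of all genes tested rose and 0.334% fell. Gnao1, an inhibitory Go subunit abundant in neurons and present in atria, stood at 9.45, 13.99 and 18.3 CPM in DKO, against 5.08, 5.68 and 7.34 CPM in Ctrl (1.24 ± 0.17, adjusted p = 0.000143). Grk5, a kinase that desensitises receptors, stood at 10.8, 14.3 and 20.2 CPM in DKO, against 4.58, 6.42 and 9.30 CPM in Ctrl (1.12 ± 0.17, adjusted p = 0.000332). Outside that list the adenosine receptor Adora1, which couples to inhibitory G proteins, stood at 67.7, 87.1 and 120.0 CPM in DKO, against 47.5, 56.9 and 64.4 CPM in Ctrl (0.68 ± 0.13, adjusted p = 0.00465). Adcy5, a main adenylyl cyclase of the heart, stood at 53.7, 67.4 and 81.0 CPM in DKO, against 87.2, 104 and 140.1 CPM in Ctrl (-0.74 ± 0.14, adjusted p = 0.00465). All 4 kept DKO and Ctrl apart in every library, and all 4 were called in the same direction in TKO against MKO. For Gnao1 the ratio there was larger, at 2.80 (38.3 to 72.8 CPM in TKO and 6.59 to 9.12 CPM in MKO), and the difference between the 2 contrasts was called (1.56 ± 0.24, adjusted p = 0.00161).

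**Figure D4:**
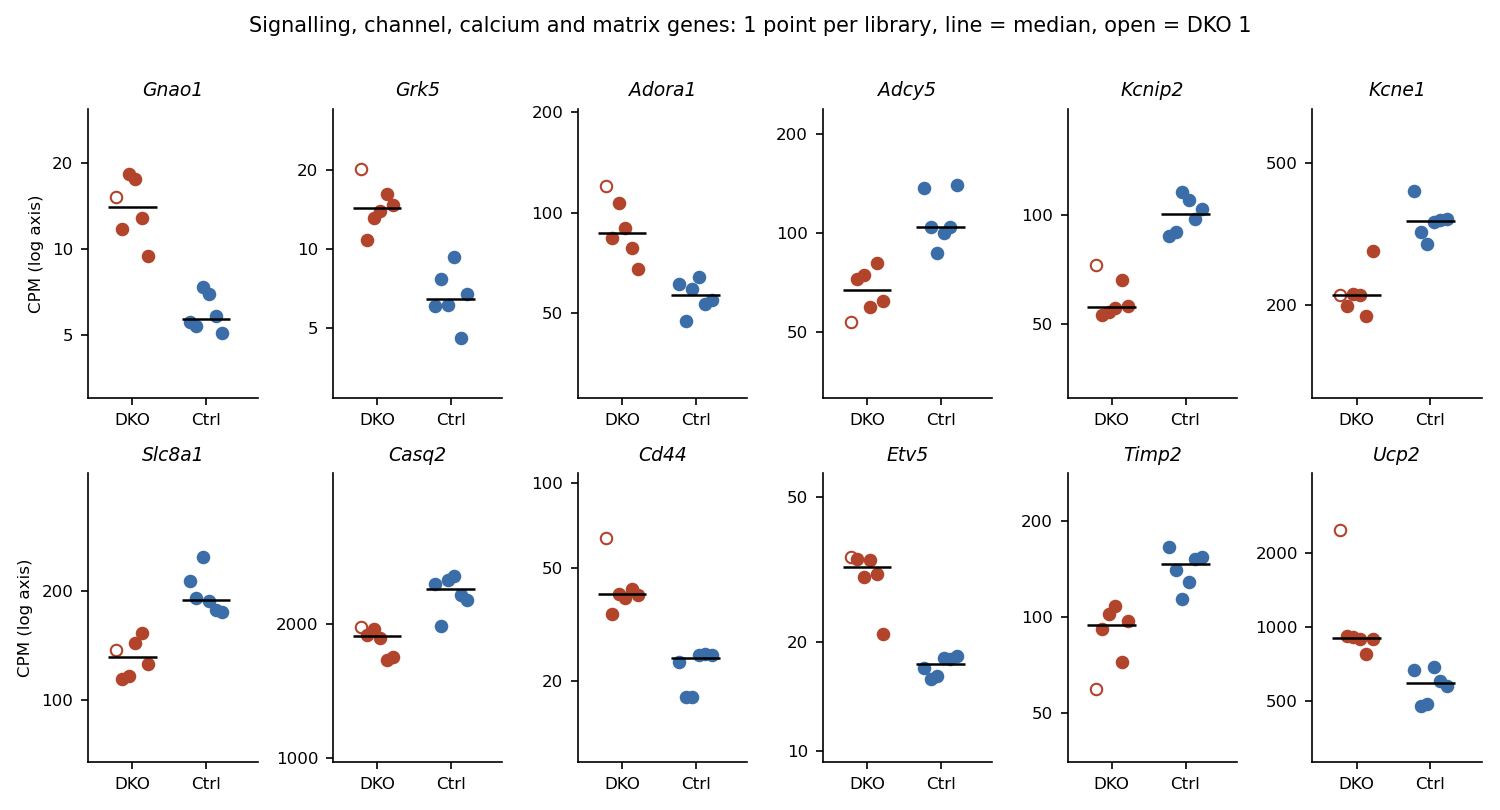
Level in CPM on a log axis (y axis, 1 panel per gene) in the 6 DKO libraries (left, red) and the 6 Ctrl libraries (right, blue); each point is 1 library, the line is the group median and the open point is DKO 1. Each of the 12 genes separates DKO from Ctrl; in Ucp2 DKO 1 stands alone at 2497 CPM.

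Etv5, an ETS factor of the PEA3 family that acts downstream of ERK signalling, was the only gene called of 25 ERK feedback and ETS genes. Etv5 stood at 20.9, 32.0 and 34.2 CPM in DKO, against 15.8, 17.4 and 18.3 CPM in Ctrl (0.82 ± 0.16, adjusted p = 0.00632), with DKO 6 the lowest of its group and still above every Ctrl library. Its ratio was 2.25 in TKO against MKO, with 80.8 to 165 CPM in TKO and 18.1 to 29.96 CPM in MKO, and the difference between the contrasts was called (1.42 ± 0.22, adjusted p = 0.00171). Among 25 immediate early genes Arc was called, while Fos (0.10 ± 0.57, adjusted p = 0.977) and Egr1 (0.24 ± 0.46, adjusted p = 0.899), known growth factor targets of Srf and its ETS partners, were not. Arc, a regulator of synaptic strength in neurons, stood at 8.06, 18.9 and 35.8 CPM in DKO, against 0.204, 0.601 and 1.49 CPM in Ctrl (4.90 ± 0.60, adjusted p = 2.19e-05). Arc lies 6.34 Mb from Mrtfa on chromosome 15. No gene was called among 27 YAP and TEAD targets.

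Among 54 matrix genes 1 rose and 1 fell, where 0.301% of all genes tested rose and 0.334% fell. Cd44, the hyaluronan receptor, stood at 34.5, 40.4 and 63.7 CPM in DKO, against 17.5, 24.03 and 24.9 CPM in Ctrl (0.96 ± 0.16, adjusted p = 0.00169, and 0.82 without DKO 1). Timp2, an inhibitor of metalloproteinases, stood at 59.5, 94.3 and 108 CPM in DKO, against 114, 147 and 166 CPM in Ctrl (-0.69 ± 0.13, adjusted p = 0.00465). The groups were separate for both. In TKO against MKO the ratios were 1.83 for Cd44 (adjusted p = 6.02e-08) and -1.35 for Timp2 (adjusted p = 1.28e-07). The serine protease Prss23 was higher (0.70 ± 0.15, adjusted p = 0.0174), and the collagen hydroxylase Plod1, named after its values were seen, was lower (-0.35 ± 0.08, adjusted p = 0.0269). With 1 library left out, Prss23 was called in 9 of 12 fits and Plod1 in 8 (largest adjusted p = 0.0636 and 0.0637). The summed fibroblast markers given above overlapped between the groups, and their part in these changes was not tested.

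Several genes of stress and metabolism rose with calls that most single libraries could end. Il15, an interleukin for which muscle is a known source, stood at 26.3 to 36.1 CPM in DKO 2 to 6 and 62.5 CPM in DKO 1, against 3.05, 13.4 and 16.4 CPM in Ctrl. Ctrl 5 and Ctrl 6 each held 3.05 CPM, and Ctrl 1 to 4 held 12.8 to 16.4 CPM. All DKO libraries lay above all Ctrl libraries, yet the adjusted p was 0.0421 with DKO 1 (1.82 ± 0.43) and 0.0635 without it (1.62). In TKO against MKO the ratio was 1.27 (adjusted p = 0.0454). MKO 4 and MKO 6 held 2.03 and 2.05 CPM, and the other MKO libraries 12.4 to 15.1 CPM. Ucp2, an uncoupling protein of the mitochondrial inner membrane, stood at 777 to 919.9 CPM in DKO 2 to 6 and 2497 CPM in DKO 1, against 478 to 686 CPM in Ctrl (0.98 ± 0.23, adjusted p = 0.0412, and 0.58 without DKO 1, adjusted p = 0.0541). Fbxo32, the muscle ubiquitin ligase atrogin-1, had a ratio of 0.74 ± 0.17 (adjusted p = 0.0365) and 0.59 without DKO 1 (adjusted p = 0.0706). Each of these 3 genes kept its groups apart without DKO 1 as with it. Of the 12 fits that left out 1 library, DKO or Ctrl, Il15 was called in 2, Ucp2 in 4 and Fbxo32 in 4 (largest adjusted p = 0.107, 0.122 and 0.115). Gclm was called with and without DKO 1. It encodes a subunit of the enzyme that starts glutathione synthesis and stood at 27.5, 34.0 and 49.9 CPM in DKO, against 18.4, 21.7 and 23.1 CPM in Ctrl (0.75 ± 0.13, adjusted p = 0.00380). Alas1, the first enzyme of haem synthesis, was lower, with 345, 529 and 622 CPM in DKO, against 746, 860.0 and 989 CPM in Ctrl (-0.71 ± 0.16, adjusted p = 0.0365), and was called in 4 of the 12 fits (largest adjusted p = 0.0980). Hspa1l, a heat shock protein 70 relative, was higher (0.73 ± 0.14, adjusted p = 0.00813), with only DKO 1, at 6.99 CPM, inside the Ctrl range.

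Medians of lists of short transcripts moved with DKO 1. The 76 respiratory chain and ATP synthase genes have a median transcript length of 679 bases, 0 were called, and their median log2 ratio was 0.12 with DKO 1 and -0.16 without it. The 69 ribosomal protein genes (median length 740 bases) had a median of 0.19 with DKO 1 and -0.01 without it, and the 45 fatty acid genes had 0.05 and -0.11. The sign of each of these 3 medians thus turned on DKO 1, and the part of transcript length in it was not tested. Metabolic regulators (22 genes, 0 called) and glycolysis genes (40 genes, 0 called with DKO 1 and 2 fell without it) had medians of -0.11 and -0.14, and of -0.16 and -0.20 without DKO 1. Interferon response genes had log2 ratios above 0 in 29 of 32 (median 0.23, 0.33 without DKO 1), where 6746 of the 12281 genes tested lay above 0, and Il15 was the only one called. Leukocyte markers stood above 0 as well, 7 of 8 tested (median 0.64, 0.65 without DKO 1 and 0.05 in the female libraries, where the interferon median was 0.35). Their sums overlapped between the groups, and their part in the interferon list was not tested. No gene of the p53, unfolded protein or cell cycle lists was called with or without DKO 1.

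**Figure D5:**
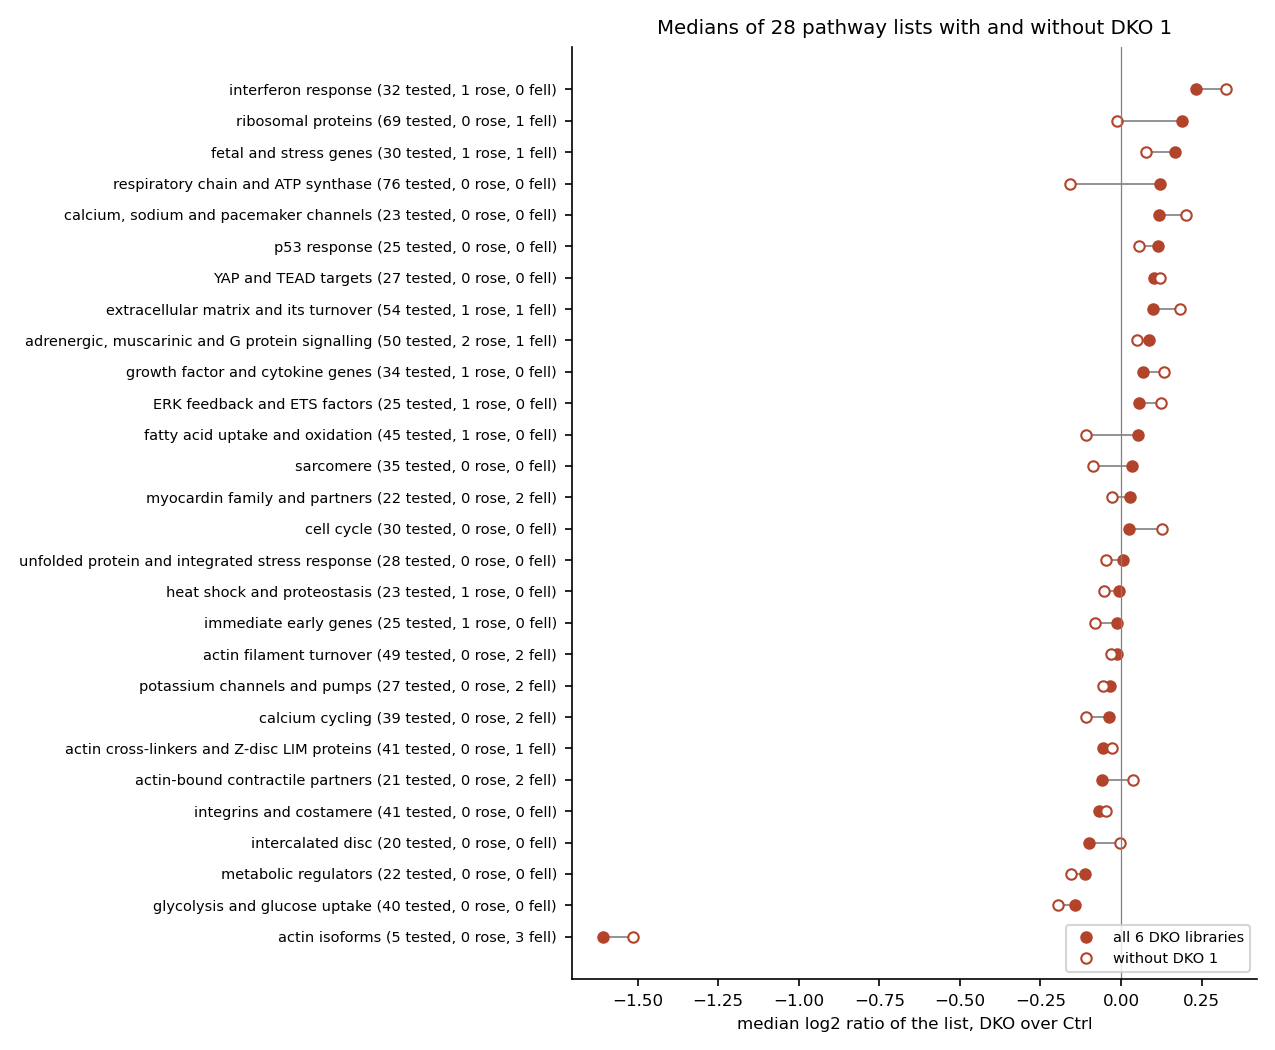
Median log2 ratio of DKO over Ctrl (x axis) for each of 28 pathway lists (y axis), with all 6 DKO libraries (filled) and without DKO 1 (open); labels give the number of genes tested, risen and fallen. The actin isoforms, the list with the fewest genes tested, lie alone at -1.61 and -1.51. The respiratory chain (0.12 and -0.16), ribosomal proteins (0.19 and -0.01) and fatty acid list (0.05 and -0.11) are among the lists whose median changes sign.

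A share of the called genes lay close to the targeted loci. Within 10 Mb of Mrtfa, on chromosome 15, 9 of 222 tested genes were called apart from Mrtfa itself (4.05%). They include Arc, the Ly6-family genes Lynx1 and Lypd2, the ribosomal gene Rpl3, the phospholipase Pla2g6 and the Rab35 partner Micall1. Lynx1, a modulator of nicotinic receptors, stood at 69.7, 132 and 151 CPM in DKO, against 256, 329 and 355 CPM in Ctrl (-1.42 ± 0.17, adjusted p = 1.95e-05). Its neighbour Lypd2 (mm10, chr15:74732252-74734313) had 0 reads in the 6 DKO libraries and 66 in the 6 Ctrl libraries, so against a floor of 3 reads over the group it was at least 23.4-fold lower in DKO. Lgals2, a galectin 2.16 Mb from Mrtfa, had 84 reads in DKO and 0 in Ctrl, at least 26.4-fold higher. These levels were low but separate in every library. Lypd2 and Lgals2 were named after their values were seen.

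Within 10 Mb of Mrtfb, on chromosome 16, 4 of 161 genes were called (2.48%): Emp2, Etv5, Rtn4r and Snn. Rtn4r, the Nogo receptor, stood at 1.14, 5.05 and 8.32 CPM in DKO, against 21.3, 33.1 and 39.4 CPM in Ctrl (-2.64 ± 0.38, adjusted p = 0.000218) without overlap. The stretch of chromosome 8 between 68 and 76 Mb, noticed after the values were seen, held 9 called genes of 105 (8.57%), 2 higher and 7 lower. Haus8, an augmin subunit that nucleates spindle microtubules, stood there at 52.0, 56.6 and 65.9 CPM in DKO, against 20.7, 24.2 and 37.2 CPM in Ctrl (1.12 ± 0.19, adjusted p = 0.00169). Ocel1 and Zfp868 in the same stretch were lower, with log2 ratios of -1.36 ± 0.16 and -1.58 ± 0.20 (adjusted p = 1.43e-05 and 4.15e-05), without overlap. Outside these 3 stretches 54 of 11791 genes were called (0.458%), 29 higher and 25 lower. These 54 include Acta1, Gnao1 and Il15, which lie elsewhere on chromosome 8. Over that whole chromosome 15 of 672 tested genes were called (2.23%), beside 2.27% on chromosome 15 and 2.28% on chromosome 16. Of the 63 called genes over 10 Mb from both targets, 61 kept their sign in TKO against MKO and 55 were called there. Loss of the Mrtf proteins and other DNA carried with the mutant strain cannot be told apart for any of these genes, since no group has one without the other.

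Among the remaining called genes, Sh3kbp1, an endocytic adaptor on the X chromosome, had the smallest standard error. Sh3kbp1 stood at 151, 155 and 173 CPM in DKO, against 227, 252 and 285 CPM in Ctrl (-0.67 ± 0.07, adjusted p = 7.56e-06), and was called in the female libraries alone (-0.67, adjusted p = 0.0340). Msrb3, a methionine sulfoxide reductase, stood at 190.2, 223 and 229 CPM in DKO, against 268, 295 and 337 CPM in Ctrl (-0.46 ± 0.08, adjusted p = 0.00133). Plekho1, which binds capping protein, was lower as well (-0.86 ± 0.14, adjusted p = 0.00100). Ret, the receptor of the GDNF family, rose in DKO to 1.60, 2.38 and 4.08 CPM, against 0.365, 0.729 and 0.831 CPM in Ctrl (1.85 ± 0.31, adjusted p = 0.00139). Msrb3 and Ret were named after their values were seen. The smallest adjusted p of all, 1.16e-06, belonged to the uncharacterised chromosome 16 gene 4930455C21Rik, at 37.8 to 55.9 CPM in DKO and 12.7 to 18.9 CPM in Ctrl.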

How the data were processed

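RNA of sorted mouse cardiomyocytes was sequenced as polyA libraries made with SMART-Seq v4 and Nextera XT, per the labels' protocols. The submitters' processing notes name STAR, featureCounts, DESeq2 and mm10, with no role or order. The authors deposited 1 table of raw counts for 24 libraries, and a table of their own comparisons with log2 fold changes and p-values, from which only calls and signs were used. That deposited table also holds columns of mean normalised signal and of other annotation, which were not used for any result.

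Counts were tested as deposited with edgeR 4.0.16 (R 4.3.3, limma 3.58.1): TMM scaling, filterByExpr with a minimum count of 10, 1 quasi-likelihood fit of all 24 libraries with a coefficient per group, and Benjamini-Hochberg adjustment over the 12281 genes tested. Calls needed an adjusted p under 0.05. The standard error is the log2 ratio divided by the root of its F. The scripts were tested on simulated data. CPM per kilobase divides by the gene length of the deposited table.

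Members and gene lists were chosen with earlier results of these data known, and 1 list is not reported here. Genes are named if they are the targets, Myocd or Srf, among the 20 largest called rises or falls at 10 CPM or more with at least 5 of 6 DKO libraries beyond the Ctrl mean, called list members or the up to 4 members of a list with the smallest adjusted p, or listed or among the 5 largest rises or falls called only without DKO 1. Outside that rule, Actb, Fos, Egr1, Myh11, Cnn1, Ptprc, Myl2, Tnnt2, Des, Retn, Cidec, Gm505, Gm12295, Mcart1, Pmp22, Mau2, Sstr3, Emp2, Lypd2, Lgals2, Plod1, Msrb3, Ret and 4930455C21Rik were named after their values were seen. Alternatives were DESeq2 1.42.0, voom with quality weights, other filters and scalings, a replicate block, a sex term and leaving out libraries.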

Additional observations from a re-analysis of the deposited data

Results flagged for a closer look

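In a group of 6 libraries a value was taken out for a closer look where its gap to the nearest other library exceeded Dixon's critical share of the group's range, which chance gives in about 1 of 20 groups. In all, 154 groups of genes named in the report were checked, and DKO 1 was marked 14 times. Not every named gene was among them. DKO 1 also stood apart for Abcc9 (130 CPM, next lowest 339 CPM) and Myl2 (7115 CPM, next highest 3746 CPM). Capzb, Tmem38a and Fbxl22 were named because they were called only without DKO 1, so their marks follow in part from that choice. The 14 marks can thus not be set against 1 of 20. DKO 1 stood high for Srf (105 CPM, next highest 63.6 CPM), Il15 (62.5 CPM, next 36.1 CPM), Ucp2 (2497 CPM, next 919.9 CPM), Cd44 (63.7 CPM, next 42.3 CPM) and Pdlim7 (38.5 CPM, next 25.1 CPM). It was also high for Actc1 (30051 CPM, next 15600.1 CPM), Capzb (548 CPM, next 367 CPM), Ckm (4160.4 CPM, next 2533 CPM), Tmem38a (874 CPM, next 514 CPM), Fbxl22 (193 CPM, next 122 CPM), Tcap (3367 CPM, next 1368 CPM) and Actb (216 CPM, next 114 CPM). It stood low for Vcl (126 CPM, next lowest 275 CPM) and Myh6 (23244 CPM, next 53412 CPM). Without DKO 1, Srf, Actc1, Capzb, Ckm, Tmem38a and Fbxl22 were called lower, Cd44 and Pdlim7 were called again, and Il15 and Ucp2 were not called.

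Other libraries were marked for 1 to 3 genes each. DKO 6 was low for Etv5 (20.9 CPM, next 30.1 CPM) and high for Kcne1 (283 CPM, next 214 CPM) and Myh11 (22.6 CPM, next 7.59 CPM). DKO 3 was high for Ret (4.08 CPM, next 2.43 CPM). Ctrl 3 was high for Acta1 (342 CPM, next 156 CPM) and Ckb (236 CPM, next 175 CPM), and Ctrl 2 was high for Cnn2 (56.4 CPM, next 32.5 CPM) and Actb (228 CPM, next 125 CPM).

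For 4 named genes the log2 ratio of TKO over MKO differed from that of DKO over Ctrl by the edgeR test of the difference itself. Over all genes tested, 57 of 12281 were called for this difference. For the 4 named genes the differences were 1.56 for Gnao1 (adjusted p = 0.00161), 1.42 for Etv5 (adjusted p = 0.00171), 1.12 for Hspa1l (adjusted p = 0.00889) and 3.23 for Acta1 (adjusted p = 0.0346).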

How the results depend on the processing

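The 78 genes called in DKO against Ctrl (37 higher, 41 lower) kept their sign with DESeq2, voom, a sex term, the replicate block, the female libraries alone and each library left out, and the number called moved with the fit. It was 163 with DESeq2 (68 higher, 95 lower), 313 with voom and quality weights (116 higher, 197 lower), 187 with sex as a term (85 higher, 102 lower) and 43 with the 12 DKO and Ctrl libraries fitted alone (13 higher, 30 lower). In female libraries it was 20 (9 higher, 11 lower). Without DKO 1 it was 124, or 125 in a fit of the 2 groups (39 higher, 86 lower) and 288 with sex as a term (85 higher, 203 lower); these 2 settings and the female libraries were chosen after seeing the data. The cause of these moves was not tested. Leaving out 1 library at a time gave 55 to 124 calls, 25 to 44 higher and 29 to 81 lower, and 50 of the 78 genes were called in every one of the 12 fits. Size factors of RLE, no filter, a stricter filter, leaving out DKO 1 with Ctrl 3 and leaving out genes within 10 Mb of the targets gave 76, 72, 75, 101 and 61 calls. With the replicate number as a replicate block 95 genes were called (40 higher, 55 lower), 72 of the 78 among them, Acta1 not. Same-numbered libraries did not deviate together (correlations of -0.218 to 0.185, none highest with its own number), so the numbers were not read as pairs. The number of the 78 called in TKO against MKO was 69, and 70 with those 12 libraries alone in the fit. DKO 1 had a quality weight of 0.0877, and genes of a few CPM rest on few reads at its depth.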
